A study of Mus musculus with 8 samples.

Results

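The genes described here were Txnip, its relatives Arrdc1, Arrdc2, Arrdc3 and Arrdc4, and the transcription factor genes Mlx, Mlxip (MondoA) and Mlxipl (ChREBP). They were chosen by gene symbol for their place in glucose sensing, with earlier results of these data known. They made up 8 of the 49492 rows of the expression table. RNA was profiled in mouse embryonic fibroblasts (MEFs), connective tissue cells cultured from embryos, in 4 groups of 2 libraries. Pontin WT MEFs and Pontin RA MEFs were each grown in normal medium or under glucose starvation, whose length the labels do not give. Pontin (Ruvbl1) is an ATPase of chromatin-remodeling complexes, and in the RA form 2 of its arginines are replaced by alanine. All groups came from Pontin f/f MEFs in which Cre virus deleted the endogenous gene and a stably expressed Flag-tagged Pontin took its place. Each genotype is 1 stable cell line, so that the effect of the Pontin form and a difference between the lines cannot be told apart. Whether the replicates were separate cultures is not stated, and p-values measure only the spread between these libraries.

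The recovered reads of all rows summed to between 43205841 and 56363034 per library. Overlapping rows can repeat the same reads, as described below for Txnip, so these sums are not counts of separate reads. Small counts were mostly even, as when both mates of a read pair are counted, so that separate fragments can be fewer than reads. Values are given in CPM, reads relative to the sample's own library size after scaling by the authors, and 3 reads, taken as the smallest number told from 0, were worth 0.0548 to 0.0690. All 10 fibroblast markers looked up (such as Col1a1 and Vim) had a value of at least 1 in every library. Their summed level was 10905 and 11009 in WT in normal medium and 5656 and 5571 under starvation, and 10842 and 11187, then 7362 and 7374, in RA. The markers did not all move alike. By the test described below, 1 rose and 8 fell in WT, against 39.3% and 39.2% of all tested genes. In RA 2 rose and 6 fell, against 35.0% and 33.7%. Of other cell types, 0 of 5 adipocyte and 0 of 5 skeletal muscle genes reached 1 in any library, and 2 of 6 epithelial genes did (summed level 1.48 to 3.68). Of endothelial genes 2 of 5 did (Kdr and Tek), with sums of 2.05 to 3.44 in normal medium and 6.03 to 9.43 under starvation. Of leukocyte genes 2 of 6 did (Csf1r and Cd68), with sums of 13.0 to 17.2 in normal medium and 20.7 to 24.3 under starvation. The fibroblast, endothelial and leukocyte sums moved with the medium while Pecam1 and Ptprc stayed under 1 in every group mean, and their part in the results on starvation was not tested. The Ruvbl1 row averaged 28.0 and 28.2 in WT in normal and starvation medium, and 34.4 and 44.0 in RA. It cannot distinguish the forms, which differ by amino acid replacements only.

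Cells read their glucose supply in part through glucose 6-phosphate. When it rises, MondoA or ChREBP, each paired with Mlx, gathers in the nucleus and binds carbohydrate response elements, which are tandem E-box-like motifs a few bases apart. Txnip and Arrdc4 are classic targets. Their products are alpha-arrestins, adaptor proteins with PPxY motifs that bring NEDD4-type ubiquitin ligases to membrane proteins. Txnip also binds thioredoxin and helps remove glucose transporters from the cell surface, so that its synthesis under high glucose limits further uptake.

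The letters upstream of Txnip and Arrdc4 are shown because these 2 genes are the textbook readouts of this pathway. All 8 genes matched the RefSeq promoter table (build GRCm38.p6), with 11 promoters in all. The stretches below are the 250 bases before the annotated start, 5′ to 3′ on the strand of the gene. Txnip's lies at chr3:96557707-96557956 on the plus strand and Arrdc4's at chr7:68749239-68749488 on the minus strand. Capitals mark the tandem motif in Txnip and the E-box CACGTG in Arrdc4.
Txnip: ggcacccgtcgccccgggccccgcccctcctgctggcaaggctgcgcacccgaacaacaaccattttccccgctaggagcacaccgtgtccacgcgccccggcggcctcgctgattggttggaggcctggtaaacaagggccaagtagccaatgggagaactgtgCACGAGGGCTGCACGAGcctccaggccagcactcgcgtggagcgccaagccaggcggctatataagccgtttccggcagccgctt
Arrdc4: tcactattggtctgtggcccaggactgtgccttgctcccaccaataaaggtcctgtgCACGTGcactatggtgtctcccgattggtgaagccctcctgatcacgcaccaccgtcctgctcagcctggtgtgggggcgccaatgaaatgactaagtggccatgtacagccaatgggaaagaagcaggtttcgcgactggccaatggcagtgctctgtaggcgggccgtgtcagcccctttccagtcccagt

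The tandem motif searched was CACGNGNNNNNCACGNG on either strand. Both CACGNG units of this pattern read in the same direction. Tandem sites with a reversed unit or another spacing were not searched, so the tandem counts here hold for this form only. The Txnip window held 1 match, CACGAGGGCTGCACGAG, from 85 to 69 bases before the start. In 32851 mouse promoter windows of 300 bases (250 before the start and 50 from it) such a match was present in 16, or 0.0487%. No other of the 8 genes had one. The perfect E-box CACGTG, a palindrome that can also form part of a tandem match, was found once in each of Arrdc4, Mlx and Mlxipl and in 7.15% of all windows. In Arrdc4 it lay 193 to 188 bases before the start. The letters CCAAT, searched on both strands, occurred 6 times in the Arrdc4 window and 2 times in that of Txnip. They were also present for every other of the 8 genes except Arrdc1. At least 1 match was present in 37.4% of all windows, and how common repeated matches are was not counted. The forkhead-type letters GTAAACA (both strands) were present once, in Txnip, 121 to 115 bases before the start, and in 3.65% of windows. These are letter matches in short windows and do not show binding.

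**Figure D1:**
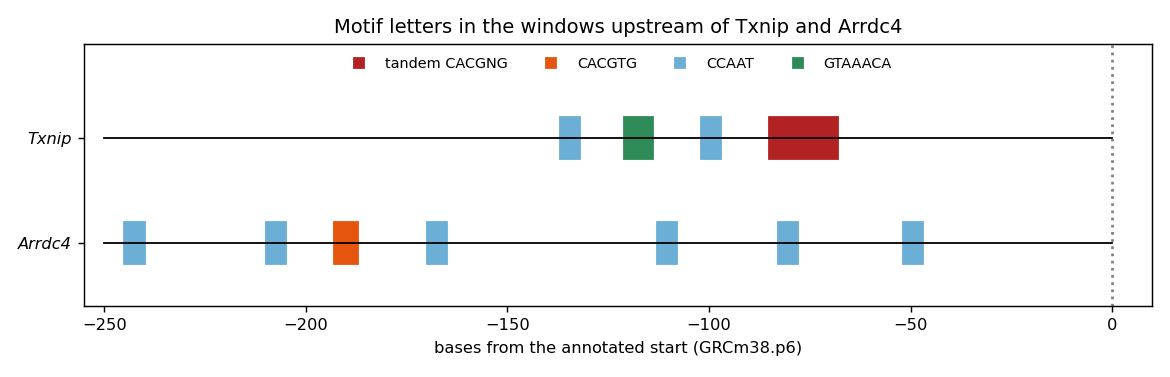
Positions of the searched motifs in the 250 bases before the annotated starts of Txnip and Arrdc4 (x axis, bases from the start; dotted line, the start). Coloured blocks are matches on either strand: Txnip holds the tandem match from 85 to 69 bases before its start, and Arrdc4 a single CACGTG from 193 to 188 bases before it.

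Of the 15 genes whose windows held the tandem letters, 10 were expressed enough to be tested, Txnip among them. Under starvation 7 of these rose and 2 fell in WT, where 39.3% and 39.2% of all tested genes did, and 5 rose and 3 fell in RA, against 35.0% and 33.7%. One of the 7, Stpg4, passed the filter only through starved WT cells (mean 1.40, and 0.147 to 0.205 in the other groups). Txnip had the lowest change of the 10. At the other end was Fnip1, which encodes a partner of the nutrient-sensing protein folliculin and is named here after its values were seen. Its group means were 34.6 and 145 in WT and 32.7 and 89.2 in RA, in normal and starvation medium, with log2 differences of 2.04 (limma, adjusted p = 4.32e-15) and 1.42 (limma, adjusted p = 1.43e-12). The shared letters of this form thus lay upstream of genes that moved both ways.

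Txnip fell under glucose starvation in both genotypes. In Pontin WT MEFs the values were 24.9 and 24.5 in normal medium and 1.26 and 0.987 under starvation. In Pontin RA MEFs they were 40.4 and 36.3 in normal medium and 2.0 and 2.35 under starvation. The starved libraries lay far below every library in normal medium, and the 4 groups did not overlap. As plain ratios of means, the level dropped 22.0-fold in WT (24.7 ± 0.32 to 1.12 ± 0.19, SD, n = 2) and 17.6-fold in RA (38.3 ± 2.9 to 2.18 ± 0.25, SD, n = 2).

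On the scale of the test, log2(value + 1), which damps the change of low values, the difference was -3.60 in WT (SE 0.11, limma with Benjamini-Hochberg adjustment over 16232 genes, adjusted p = 4.59e-15) and -3.63 in RA (SE 0.11, limma, adjusted p = 1.23e-14). A gene was called where the adjusted p-value was under 0.05. Of the 16232 tested genes, 39 had a lower difference than Txnip in WT and 1 in RA, that 1 being the antisense gene Gm15441 described below.

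Txnip was also higher in RA than in WT in both media. The ratio of means was 1.55 in normal medium and 1.94 under starvation. Log2 differences were 0.61 (SE 0.11, limma, adjusted p = 0.00123) and 0.58 (SE 0.11, limma, adjusted p = 1.41e-04). On recovered reads, without the damping of low values, edgeR gave 0.98 (adjusted p = 1.15e-04) under starvation. The interaction, which subtracts the WT response from the RA response, was -0.03 with a 95% interval of -0.35 to 0.29 (limma, adjusted p = 0.886). It changed sign with the pseudocount and was not called under any alternative. No difference between the responses was detected, and one within that interval could have been missed. On recovered reads edgeR gave an interaction of 0.36 (adjusted p = 0.137).

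**Figure D2:**
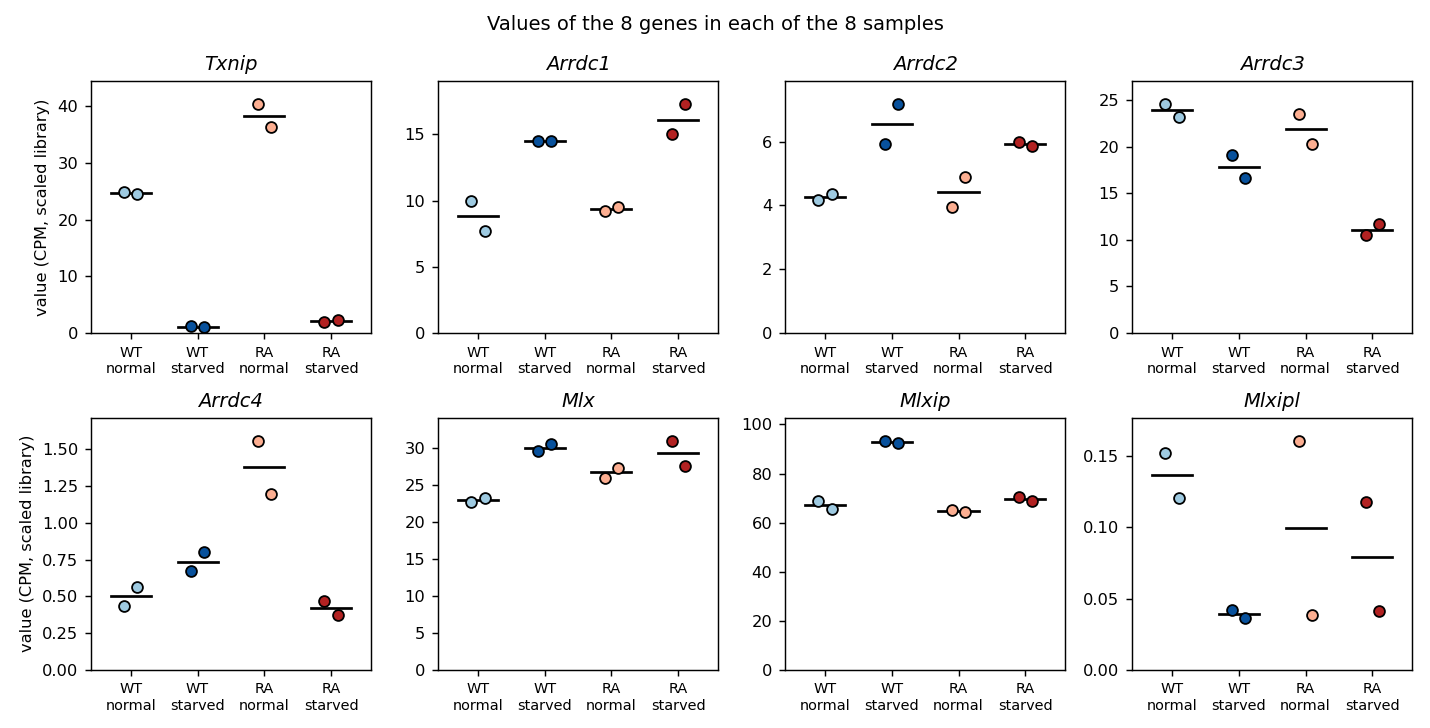
Values of the 8 genes (y axis, CPM of the scaled library, each panel from 0) in the 2 libraries of each of the 4 groups. Points are libraries and bars are group means: Txnip is at 24.7 and 1.12 in WT and at 38.3 and 2.18 in RA, while Mlxip rises to 93.0 under starvation in WT and is at 69.6 in RA.

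The Txnip row has an antisense companion that was not measured separately. In the GENCODE annotation of GRCm38, Txnip lies on the plus strand of chromosome 3 from 96557957 to 96561883, with 3123 exon bases. Gm15441, an antisense transcript of the minus strand, spans the whole of it and shares 606 exon bases. The Txnip row held 1146, 1214, 60 and 54 reads in the WT libraries (normal, then starved) and 1756, 1872, 102 and 114 in the RA libraries. The Gm15441 row held the same reads plus 14, 12, 0 and 0 in WT and 12, 16, 0 and 2 in RA. Its fit was therefore nearly that of Txnip, with log2 differences of -3.62 in WT (limma, adjusted p = 4.69e-15) and -3.63 in RA (limma, adjusted p = 1.30e-14).

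The same held across the table. Among 980 pairs in which a gene lay inside another on the opposite strand without a shared exon base, the outer row had at least as many reads in every library in 967 (98.7%). Among 808 such pairs on the same strand it was 806 (99.8%). Where the inner gene was protein coding and the outer gene on the opposite strand was not, with or without shared exon bases, it was 140 of 144 (97.2%). This is the pattern that counting over whole gene spans without regard to strand would give. An outer row can also be larger through reads of its own, and how often that was so was not counted. Transcription from the 2 strands of the Txnip locus cannot be told apart in these values.

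**Figure D3:**
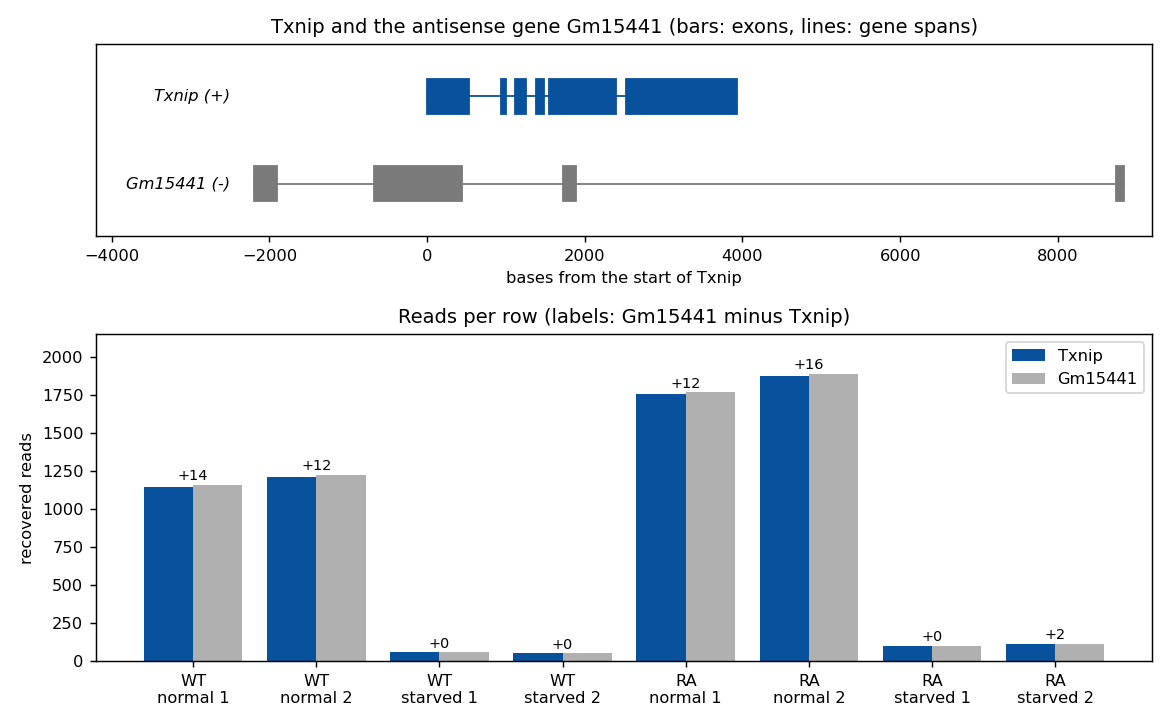
Top, exons (blocks) and gene spans (lines) of Txnip (plus strand) and Gm15441 (minus strand) by distance in bases from the start of Txnip. Bottom, recovered reads of both rows (y axis) in each of the 8 libraries, labelled with the reads of Gm15441 beyond those of Txnip: the surplus is 0 to 16 reads in every library.

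Arrdc4, the other classic target and an adaptor for NEDD4-type ligases, was near the lower limit of what was tested. Its values were 0.435 and 0.564 in WT in normal medium and 0.671 and 0.804 under starvation. They were 1.56 and 1.20 in RA in normal medium and 0.470 and 0.372 under starvation. The 2 RA libraries in normal medium stood above the other 6, which lay between 0.372 and 0.804, and only through those 2 did the gene pass the filter of a value of at least 1 in 2 libraries. The reads behind these values were 20, 28, 32 and 44 in WT (normal, then starved) and 68, 62, 24 and 18 in RA.

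Because a high level in RA in normal medium was a condition for entering the filtered test, the comparisons of Arrdc4 are given from the fit without the filter, over 31407 genes. In RA the starved mean was 30.4% of that in normal medium (0.421 against 1.38), with a log2 difference of -0.74 (limma, adjusted p = 9.13e-04). In WT the ratio of starved to normal was 1.48 and the log2 difference 0.21 (limma, adjusted p = 0.165), which was not called. The interaction was -0.95 (limma, adjusted p = 0.00308). In normal medium the RA mean was 2.77 times that of WT (log2 difference 0.66, limma, adjusted p = 0.0262). With the filter and without the first WT library in normal medium that difference was not called (0.60, limma, adjusted p = 0.076). Under starvation the means were 0.737 in WT and 0.421 in RA (log2 difference -0.29, limma, adjusted p = 0.0835). All of these rest on 18 to 68 reads per library, and each of the 3 called differences involves the 2 RA libraries in normal medium. If both mates of a pair were counted, as the mostly even small counts read, fewer separate fragments lie behind these values.

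The other alpha-arrestins went different ways. Arrdc1, which takes part in the budding of vesicles from the plasma membrane, had values of 10 and 7.68 in WT in normal medium and 14.5 and 14.5 under starvation. In RA they were 9.20 and 9.49, then 15.0 and 17.3. All 4 starved libraries lay above all 4 in normal medium. Arrdc1 rose 1.64-fold in WT (log2 difference 0.67, SE 0.11, limma, adjusted p = 2.26e-05) and 1.73-fold in RA (0.72, SE 0.11, limma, adjusted p = 1.24e-05). Neither the genotypes nor the responses were called different, with an interaction of 0.06 and a 95% interval of -0.26 to 0.38 (limma, adjusted p = 0.766).

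Arrdc2, a less studied member of the family, had values of 4.17 and 4.35 in WT in normal medium and 5.91 and 7.18 under starvation. In RA they were 3.95 and 4.88, then 5.99 and 5.86. Starved libraries again lay above those in normal medium, by a smaller margin. Arrdc2 rose 1.53-fold in WT (log2 difference 0.51, SE 0.12, limma, adjusted p = 9.57e-04) and 1.34-fold in RA (0.36, SE 0.12, limma, adjusted p = 0.0144). The call in RA was lost without the first RA library in normal medium (0.24, limma, adjusted p = 0.153), without the first starved RA library (0.35, limma, adjusted p = 0.0634) and without the filter on low values (limma, adjusted p = 0.0715).

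Arrdc3, an adaptor in the trafficking of adrenergic receptors and integrins, had values of 24.6 and 23.2 in WT in normal medium and 19.1 and 16.6 under starvation. In RA they were 23.5 and 20.3, then 10.5 and 11.7. The starved RA libraries were the lowest of all and did not overlap with any other group. Arrdc3 fell in both genotypes, to 74.6% of its level in WT (log2 difference -0.41, SE 0.089, limma, adjusted p = 5.35e-04) and to 50.6% in RA (-0.92, SE 0.089, limma, adjusted p = 8.52e-08). Its interaction was -0.52 (SE 0.13, limma, adjusted p = 0.00273). In normal medium the genotypes were not called different (-0.12, 95% interval -0.31 to 0.07, limma, adjusted p = 0.439), whereas under starvation RA was lower (-0.64, limma, adjusted p = 9.69e-06).

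**Figure D4:**
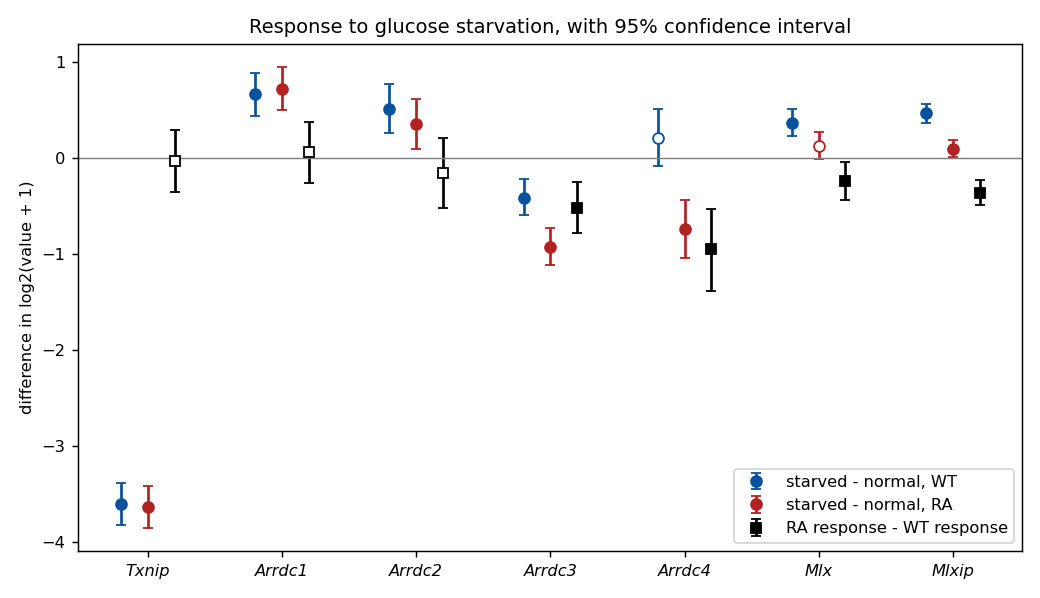
Differences in log2(value + 1) between starvation and normal medium in WT (blue circles) and RA (red circles), and the RA response minus the WT response (black squares), for the 7 tested genes, with 95% confidence intervals. Filled symbols were called and open ones were not: Txnip lies at -3.60 and -3.63, and the squares of Arrdc3, Arrdc4, Mlx and Mlxip lie below 0; Arrdc4 entered this fit only through RA in normal medium.

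Among the transcription factors, Mlxip (MondoA, the glucose-responsive partner that predominates in many cells outside liver and fat) rose under starvation in WT. Its values were 68.8 and 65.4 in normal medium and 93.4 and 92.6 under starvation. In RA they were 65.1 and 64.5, then 70.4 and 68.8. The starved WT libraries stood apart from the other 6, which spanned 64.5 to 70.4. The rise in WT was 1.39-fold (log2 difference 0.47, SE 0.043, limma, adjusted p = 2.98e-08). In RA it was 1.07-fold and at the edge of the call (0.10, SE 0.043, limma, adjusted p = 0.0467), which was lost under 18 of 23 alternatives. The interaction was -0.36 (SE 0.061, limma, adjusted p = 1.10e-04), and under starvation Mlxip was lower in RA than in WT (-0.41, limma, adjusted p = 3.36e-07). In the starved WT cells the MondoA message was thus at its highest and that of Txnip at its lowest.

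Mlx, the partner shared by MondoA and ChREBP, had values of 22.7 and 23.3 in WT in normal medium and 29.6 and 30.5 under starvation. In RA they were 26.0 and 27.3, then 31.0 and 27.6. The WT groups did not overlap, and the RA groups nearly touched. Mlx rose 1.30-fold in WT (log2 difference 0.37, SE 0.066, limma, adjusted p = 6.95e-05). In RA the difference was 0.13 (SE 0.066, limma, adjusted p = 0.0914), which was called without the second starved RA library (0.21, limma, adjusted p = 0.0283). The interaction of -0.24 (SE 0.093, limma, adjusted p = 0.0407) was lost under 14 of 22 alternatives, among them 6 of the 8 fits that each left out a library, with values of -0.26 to -0.16 in those 6. Psmc3ip, on the opposite strand, shares 385 exon bases with Mlx and held 55.8% as many reads. It rose in WT as well (0.31, limma, adjusted p = 0.0064), and how much of either row came from the shared bases was not tested.

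Mlxipl (ChREBP, the form that leads in liver and fat) was barely detected. Its row held 7, 6, 2 and 2 reads in WT (normal, then starved) and 7, 2, 6 and 2 in RA. In 4 of the 8 libraries this was below the floor of 3 reads, the gene failed the filter, and no fold or test is given.

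Read against the whole table, the share of these genes called under starvation was close to the background. Under starvation 6 of the 7 tested members were called in WT, where 78.6% of all tested genes were, and 6 of 7 in RA, against 68.7%. The RA count is the less stable, as the calls of Arrdc2 and Mlxip there were lost under the alternatives given above. In WT 4 rose (Arrdc1, Arrdc2, Mlx and Mlxip; 39.3% of all tested genes rose) and 2 fell (Txnip and Arrdc3; 39.2% fell). In RA 3 rose (Arrdc1, Arrdc2 and Mlxip; 35.0%) and 3 fell (Txnip, Arrdc3 and Arrdc4; 33.7%). Arrdc4, which passed the filter only through RA in normal medium, adds nothing to counts that involve that group, and without it 2 of 6 fell in RA. The median log2 difference of the 7 was 0.37 in WT and 0.10 in RA, against 0.0049 and 0.01 over all tested genes.

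Between the genotypes in normal medium, 2 of the 7 were called, Txnip and Arrdc4, both higher in RA, against 9.63% of all genes called and 6.68% called higher. Without Arrdc4 it was 1 of 6. Of all calls there, 69.4% were higher in RA as deposited, but 40.5% after scaling to total reads and 52.6% after quantile normalization, while Txnip stayed higher and called. Under starvation it was 3 of 7 (Txnip higher, Arrdc3 and Mlxip lower), against 62.9%, of which 30.8% were called higher and 32.1% lower out of all genes. The interaction was called in 4 of 7 (Arrdc3, Arrdc4, Mlx and Mlxip), against 50.6%. All 4 had the lower response in RA, against 26.1% called lower over all genes. Without Arrdc4 it was 3 of 6, one of them Mlx, whose call was lost under most alternatives. At the stricter cut-off of a 2-fold change on the test's scale, only Txnip was called under starvation, in both genotypes, against 19.6% of all genes in WT and 9.03% in RA. At that cut-off 0 members were called between the genotypes in normal medium (0.505% of all genes), under starvation (6.70%) or for the interaction (6.10%).

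Levels between genes were set side by side per kilobase of annotated exon, in CPM per kb. Mlx was highest in each group, with means of 11.5 and 15.0 in WT (normal, then starved) and 13.3 and 14.7 in RA. Mlxip followed with 8.06 and 11.2 in WT and 7.78 and 8.36 in RA. Txnip was level with Mlxip in WT in normal medium (7.91 ± 0.10 against 8.06 ± 0.29, SD, n = 2), and in RA its 12.3 ± 0.93 came second to Mlx (13.3 ± 0.47), with overlapping SDs. Under starvation it dropped to sixth of 8 in both genotypes, at 0.359 in WT and 0.697 in RA.

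Arrdc1 (3.52 and 5.77 in WT, 3.72 and 6.43 in RA) and Arrdc3 (3.81 and 2.85, then 3.50 and 1.77) did not differ beyond their spread in normal medium and parted under starvation. Arrdc2 ran from 1.32 to 2.02 and matched Arrdc3 within the spread in starved RA cells (1.83 against 1.77). Arrdc4 was seventh of 8 throughout (0.104 to 0.342), and Mlxipl last. If rows hold the reads of whole gene spans, as the nested pairs read, these levels include intronic reads.

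The genes whose log2(value + 1) followed that of Txnip most closely over the 8 libraries, among 12098 others with a mean of at least 5, were Gm15441 (Pearson r = 1.0), Ap1s1, a subunit of a clathrin adaptor complex (0.9987), Gm44317 (0.9987), Gpd2, the mitochondrial glycerol 3-phosphate dehydrogenase (0.9966), and Prmt1, an arginine methyltransferase (0.9966). Gpd2, for example, averaged 82.4 and 45.4 in WT and 86.4 and 51.2 in RA. Such likeness was common over these 4 groups, and r was above 0.95 for 1415 genes. For Arrdc4 the closest among 12099 genes were Sumf2 (0.9385), Rpl27 (0.9352), Cct7 (0.9234), Fam136a (0.9167) and Rdh5 (0.8985), and 0 had an r above 0.95. Rdh5 did not follow it within WT (r = -0.1398 over 4 libraries).

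Other genes of the pathway were taken from lists of known functions. The lists were drawn up with earlier results of these data known, so that their counts are no independent support. Of 20 reported target genes of the MondoA and ChREBP complexes, 14 were tested. In WT 4 rose and 8 fell (median log2 difference -0.40), where 39.3% and 39.2% of all tested genes did. In RA 4 rose and 8 fell (median -0.41), against 35.0% and 33.7%. Many of these genes also answer to the sterol-regulated factors of lipid synthesis. Elovl6, a fatty acid elongase, fell from 112 ± 3.5 to 4.69 ± 0.35 in WT (-4.31, limma, adjusted p = 1.11e-18) and from 90.4 ± 5.2 to 9.89 ± 0.028 in RA (-3.07, limma, adjusted p = 3.09e-16), each ± SD with n = 2. Scd1, a fatty acid desaturase, fell by 1.58 on the log2 scale in WT and by 0.89 in RA. Both decreases were smaller in RA, with interactions of 1.24 for Elovl6 (limma, adjusted p = 1.13e-08) and 0.69 for Scd1 (limma, adjusted p = 1.61e-08). Fasn, of the same list and named here after its values were seen, fell more in RA (0.84) than in WT (0.56). Its interaction was -0.28 (limma, adjusted p = 0.00103). Of the 14 interactions of this list 7 were called higher and 3 lower, against 24.5% and 26.1% of all tested genes.

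Rgs16, a G protein regulator, averaged 24.6 and 5.96 in WT and 41.2 and 27.9 in RA. It fell by 1.88 in WT and by 0.55 in RA, and the antisense gene Gm28513 on its other strand held 74.5% as many reads. Hk2, the hexokinase that makes glucose 6-phosphate, rose in both (0.72 in WT, limma, adjusted p = 8.43e-10, and 0.68 in RA, limma, adjusted p = 3.57e-09). Fgf21, a hormone induced by nutrient stress, went the other way from Txnip. It had 2 and 2 reads in the WT libraries in normal medium and 88 and 106 under starvation, and in RA 2 and 4, then 106 and 102, so that a fold would depend on the few reads in normal medium. It passed the filter only through the starved libraries, so that its rise in the filtered fit is no support, and without it 3 of 13 rose in each genotype. In the fit without the filter it was called in both (limma, adjusted p = 2.15e-06 in WT and 3.17e-06 in RA).

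**Figure D5:**
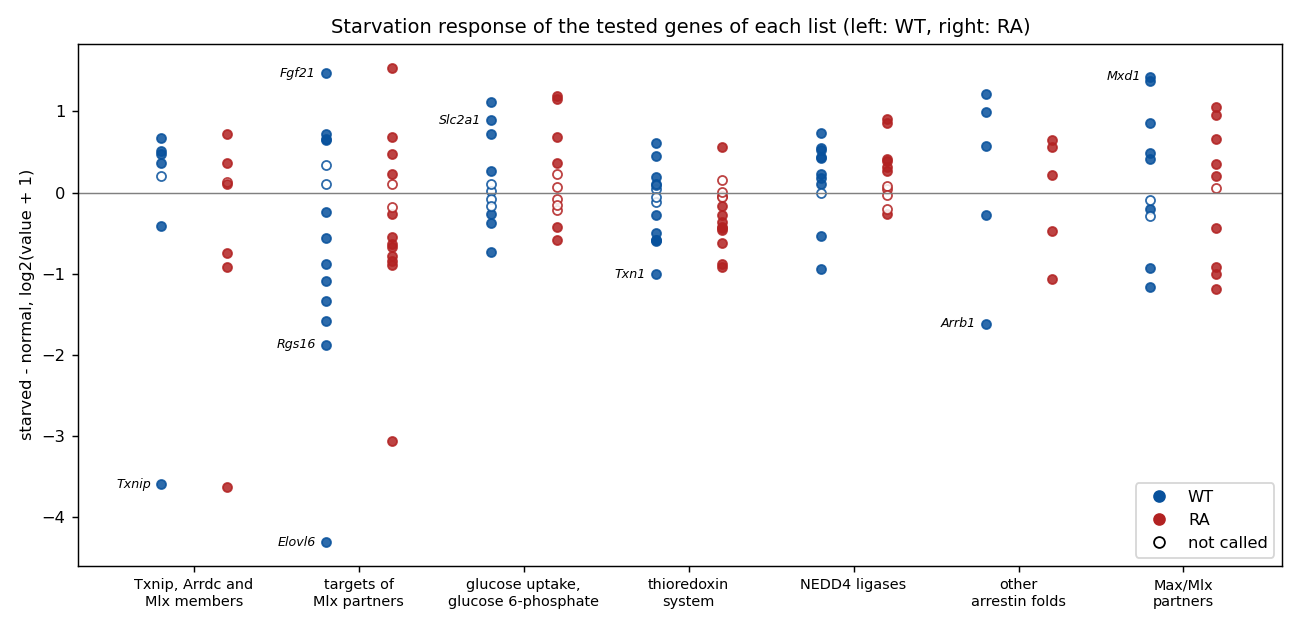
Starvation response (y axis, difference in log2(value + 1)) of the tested genes of each list, in WT (blue, left of each pair) and RA (red, right); open circles were not called. Txnip (-3.60 in WT) and Elovl6 (-4.31 in WT) lie lowest, and the genes of the thioredoxin, ligase and arrestin lists stay within about 2 log2 units of 0.

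For glucose uptake and the first steps of its use, 11 of 16 genes were tested. In WT 4 rose and 3 fell (median 0.02), against 39.3% and 39.2% of all tested genes. In RA 4 rose and 2 fell (median 0.07), against 35.0% and 33.7%. Slc2a1, the main glucose transporter of fibroblasts and a known cargo of Txnip, averaged 93.1 ± 0.65 and 174 ± 1.9 in WT and 98.4 ± 0.10 and 225 ± 0.48 in RA (SD, n = 2). It rose in WT (0.89, limma, adjusted p = 4.25e-13) and more in RA (1.19, limma, adjusted p = 2.65e-14), with an interaction of 0.29 (limma, adjusted p = 1.79e-04). The antisense gene Gm12868 overlaps it and held 65.4% as many reads. Slc2a8, an intracellular transporter, rose in both (1.12 in WT and 1.15 in RA), while Hk1, the housekeeping hexokinase, fell by 0.73 and by 0.58.

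All 14 genes of the thioredoxin system were tested. In WT 4 rose and 6 fell (median -0.09), against 39.3% and 39.2% of all tested genes. In RA 1 rose and 9 fell (median -0.32), against 35.0% and 33.7%. Txn1, the cytosolic thioredoxin that Txnip binds, averaged 448 ± 11 and 222 ± 7.1 in WT and 491 ± 4.5 and 259 ± 2.2 in RA (SD, n = 2). It fell with its inhibitor, by 1.01 in WT (limma, adjusted p = 1.13e-13) and by 0.92 in RA (limma, adjusted p = 1.09e-12). Prdx2, a peroxidase that draws on thioredoxin and shares exon bases with Rnaseh2a and Junb on the other strand, fell by 0.60 and by 0.88, and Srxn1, which restores oxidised peroxiredoxins, rose by 0.61 and 0.56. Txn2, the mitochondrial thioredoxin, rose in WT (0.45, limma, adjusted p = 1.65e-08) and was at -0.04 in RA (limma, adjusted p = 0.368), a difference that was called (interaction -0.49, limma, adjusted p = 2.01e-06).

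Of the ligases that alpha-arrestins recruit, all 11 genes of the list were tested. In WT 8 rose and 2 fell (median 0.23), against 39.3% and 39.2% of all tested genes. In RA 6 rose and 1 fell (median 0.26), against 35.0% and 33.7%. Nedd4 itself fell by 0.53 in WT (limma, adjusted p = 2.58e-09) and by 0.27 in RA (limma, adjusted p = 1.66e-05). Smurf1 rose by 0.55 and 0.86 (limma, adjusted p = 1.16e-09 and 6.59e-12). Itch, a ligase that ubiquitinates Txnip itself, rose by 0.11 in WT (limma, adjusted p = 0.0374) and was at 0.05 in RA, where it was not called. Ndfip2, an adaptor of these ligases, rose by 0.73 in WT and 0.39 in RA.

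Of 8 other genes with an arrestin fold, 5 were tested. In both genotypes 3 rose and 2 fell (median 0.58 in WT and 0.22 in RA). Over all tested genes 39.3% rose and 39.2% fell in WT, and 35.0% and 33.7% in RA. Arrb1, a beta-arrestin of receptor signalling, averaged 18.0 and 5.20 in WT and 14.7 and 6.50 in RA, and fell by 1.62 and by 1.06. Vps26a, an arrestin-like subunit of the retromer, which returns cargo from endosomes, rose from 90.7 ± 0.97 to 212 ± 4.6 in WT, and in RA from 92.0 ± 2.0 to 145 ± 6.4 (SD, n = 2), with log2 differences of 1.21 (limma, adjusted p = 3.84e-14) and 0.65 (limma, adjusted p = 4.08e-10). Its paralog Vps26b fell by 0.28 and by 0.48. The interaction was called in 5 of 5, against 50.6% of all genes, but in 3 without the first WT library in normal medium or the second starved WT library, in 3 without the filter, and in 3 to 4 as any 1 library was left out.

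The 10 genes of the Max and Mlx dimer network were all tested. In WT 5 rose and 3 fell (median 0.17), against 39.3% and 39.2% of all tested genes. In RA 5 rose and 4 fell (median 0.13), against 35.0% and 33.7%. Mxd1 and Mnt, repressors that pair with Max or Mlx, rose more in WT than in RA. Mnt averaged 18.2 and 48.7 in WT and 16.3 and 21.1 in RA, with log2 differences of 1.37 (limma, adjusted p = 2.24e-11) and 0.35 (limma, adjusted p = 5.17e-04) and an interaction of -1.02 (limma, adjusted p = 6.23e-07). For Mxd1 the differences were 1.43 and 0.66 and the interaction -0.78 (limma, adjusted p = 2.94e-04). Mxd4, a further Mlx partner, fell by 0.20 in WT and by 0.92 in RA, and the antisense gene Gm42846 inside it held 28.9% as many reads. Max rose by 0.49 in WT and was at 0.06 in RA, where it was not called. Myc, the best known partner of Max, averaged 107 and 194 in WT and 138 and 270 in RA and rose by 0.86 and 0.96. In this list 8 of 10 interactions were called, 7 of them lower, against 26.1% of all genes called lower, but 5 without the first starved RA library, 5 without the filter, and 5 to 7 as any 1 library was left out. Mycn passed the filter only through normal medium, and without it 2 of 9 fell in WT and 3 of 9 in RA.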

How the data were processed

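RNA was profiled in 8 MEF libraries, grouped per the labels by genotype and medium. Illumina TruSeq polyA libraries were made by the authors, who sequenced them as paired ends and mapped them to mm9 (TopHat2 2.0.9, per the submitters' processing notes, which also name bedtools and edgeR). The gene annotation and the handling of strand are not given in the sources used here. The deposited values are a signal, CPM relative to library sizes scaled by the authors; column sums ran from 965845 to 1029723. The columns named minus and plus were taken for normal medium and starvation, the marks the study uses. In every library 100% of nonzero values were whole reads within 0.1 read, so that reads were recovered; 78.2% to 80.5% of counts from 1 to 9 were even, as when both mates are counted. Read totals and the floor of 3 reads cover counting error only.

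Genes reaching a value of 1 in 2 or more libraries were tested with limma 3.58.1 (R 4.3.3) on log2(value + 1), with a mean per group, a trended eBayes, 2-sided tests and Benjamini-Hochberg adjustment over 16232 genes, in 5 contrasts. The design had expected plain CPM; the same test was kept. Alternatives were other pseudocounts (0.1 and 0.5), filters, scalings and thresholds (the study's 1e-05 among them), a replicate block, each library left out, and edgeR 4.0.16 and DESeq2 1.42.0 on recovered reads. edgeR called 12705 genes under starvation in WT, 11114 in RA, 1555 and 10194 between the genotypes in normal medium and under starvation, and 8096 for the interaction. The tests were also run on simulated counts in which few genes changed and the spread was the same in every group. These data differ in both respects, so that run cannot vouch for the calls here. Replicates differed by more than sampling noise in every group (chi-square of 3.48 to 16.7 per gene).

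The members and gene lists were chosen with earlier results of these data known. Named genes were all members, genes sharing exons with a member, the called genes with the 2 highest and 2 lowest responses of each list in either genotype, 8 genes by name (Slc2a1, Hk2, Txn1, Itch, Mxd1, Mxd4, Mnt and Max), and the 5 nearest in pattern to Txnip and to Arrdc4; not all are printed. Overlaps and exon lengths came from GENCODE M21 (GRCm38), matched by symbol, a later build than that of the mapping; no coordinate was converted.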

Additional observations from a re-analysis of the deposited data

Results flagged for a closer look

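By the interaction test, WT and RA responded differently to starvation in 4 of the 7 tested members (3 of 6 without Arrdc4), each lower in RA. For Arrdc4 the difference was -0.95 (adjusted p = 0.00308 in the limma fit without the filter), on 18 to 68 reads per library; the gene passed the filter only through RA in normal medium, so that the filtered test is no support. For Arrdc3 it was -0.52 (limma, adjusted p = 0.00273), a larger decrease in RA. For Mlxip it was -0.36 (limma, adjusted p = 1.10e-04), where the rise seen in WT was smaller in RA. For Mlx it was -0.24 (limma, adjusted p = 0.0407), a value that 14 of 22 alternatives did not call. Over all tested genes 50.6% had a called interaction. The part of the cell line, as against the Pontin form, in these differences cannot be told apart.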

How the results depend on the processing

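The decrease of Txnip kept its direction and its call under all 23 alternatives (log2 difference -4.50 to -3.51 in WT and -4.15 to -3.55 in RA). Its uncalled interaction of -0.03 turned to 0.27 and 0.10 with pseudocounts of 0.1 and 0.5, to 0.03 with total-read scaling, to 0.36, 0.33 and 0.36 with edgeR (as is, without the filter, on halved reads) and to 0.33 with DESeq2, and ran from -0.12 to 0.06 as libraries were left out; a pseudocount of 1 damps values near 1, as those of starved cells are. At the threshold of 1e-05, Txnip was no longer called between the genotypes (0.61 and 0.58), nor Arrdc4 in RA (-0.74), in normal medium (0.66) or for the interaction (-0.95).

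Members called at 1e-05 numbered 2 in WT and 2 in RA under starvation, 0 between the genotypes in normal medium and 0 for the interaction. Between the genotypes under starvation, Arrdc3 (limma, adjusted p = 9.69e-06) and Mlxip (limma, adjusted p = 3.36e-07) passed it. The share of all genes passing 1e-05 was not counted, so these numbers have no background. With a 2-fold change required they numbered 1, 1, 0, 0 (under starvation between the genotypes) and 0, with the shares of all genes given above. In normal medium the genotypes differed in 1 member with a filter of 5, which drops Arrdc4, in 1 with DESeq2, which gave Arrdc4 no adjusted p, and in 1 to 2 as libraries were left out. Over all genes, 1588 of 12748 differed in normal medium with the filter of 5 and 1399 of 16232 with DESeq2. Under starvation 5 members differed between the genotypes after quantile normalization, where 10362 of 16232 genes did. For Arrdc4, quantile normalization called the WT response (0.36) and the starved genotypes (-0.47), the latter called also without the variance trend (-0.29), and its difference in normal medium ran from 0.56 to 0.77 as libraries were left out, with the call lost at 0.60. The causes were not tested.

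Of uncalled differences, those between the genotypes changed sign for Arrdc1 (-0.09 to 0.25 in normal medium as libraries were left out, -0.01 under starvation with quantile normalization), Arrdc2 (-0.0027 with total-read scaling and -0.09 to 0.16 as libraries were left out, in normal medium; -0.24 to 0.0041 likewise under starvation) and Mlx (-0.12 to 0.04 likewise under starvation). The Arrdc1 interaction turned to -0.07 with quantile normalization and ran from -0.11 to 0.23 as libraries were left out, and Txn2 in RA to 0.05 with quantile normalization.

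Whether equal replicate numbers mark paired libraries is not stated. Correlations of their deviations ran from -0.00764 to 0.157, which is low but cannot exclude pairing. With the number as a replicate block, members called were 6 and 6 under starvation, 3 and 3 between the genotypes and 4 for the interaction, Mlx in normal medium being added (0.20, limma, adjusted p = 0.0476), and Txnip stayed at -3.60 and -3.63. Over all 16232 tested genes the block gave 12922 and 11406 calls under starvation, 2059 and 10494 between the genotypes and 8578 for the interaction. Depth limits Arrdc4 and Mlxipl.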
